A study of Mus musculus with 2 samples.

Results

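The genes described here are the Wnt ligands, the Frizzled receptors with their co-receptors, and the secreted proteins that tune them in mouse intestinal crypts. They were chosen by symbol: Wnt, Fzd, Sfrp, Dkk or Rspo followed by digits and at most 1 letter, or Frzb, Wif1, Notum, Dkkl1, Lrp5, Lrp6, Ror1, Ror2 or Ryk. This gave 47 of 17216 genes: 17 ligands, 15 receptors, 11 antagonists and 4 R-spondins, each with 1 row in the deposited table.

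Small intestine crypts of C57BL/6 mice were profiled by bulk RNA-seq in 2 libraries. The wild-type library came from AhCre mice and the Eed knockout library from AhCreEedfl/fl mice. AhCre is a Cre recombinase under a promoter that responds to aryl hydrocarbon receptor ligands, and both genotypes received 3 injections of β-naphthoflavone, such a ligand, and were killed at 15 days. Eed is a core protein of the Polycomb repressive complex that places methyl groups on lysine 27 of histone H3 (PRC2). The labels do not give the number of mice behind a library, so the unit of comparison was 1 library per genotype: there was no replicate check and no test of genotype.

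Wnt proteins are lipid-modified, short-range signals. They bind Frizzled together with Lrp5 or Lrp6, which spares β-catenin from degradation and lets it switch on target genes with Tcf factors; Ror and Ryk receptors carry signals that do not need β-catenin. Secreted Frizzled-related proteins and Wif1 bind the ligands, Dickkopf proteins block Lrp5 and Lrp6, and Notum clips off the lipid, whereas R-spondins strengthen the signal by keeping Frizzled at the surface. In crypts this pathway maintains the Lgr5-positive stem cells, with Paneth cells and the mesenchyme beneath the epithelium as sources of ligand.

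Libraries held 6970733 (wild type) and 5918162 (knockout) reads assigned to transcripts. Reads are given below in that order, and ratios are of reads after the authors' size factors, with exact 95% Clopper-Pearson intervals that cover counting error only. The targeted gene Eed had 588 and 183 reads, 3.08-fold lower in the knockout (2.61 to 3.66). All 7 epithelial markers were within 2-fold, and 2 of them were above their wild-type value. Epcam had 2759 and 2566 reads. Cdx2 lay furthest from level, with 1964 and 1015 reads, a ratio of 0.539 (0.499 to 0.581). Genes with several RefSeq accessions had fewer reads in this table, a median of 96 wild-type reads with 1 accession, 47 with 2 and 33 with 3 or more. The 10 members with more than 1 accession were Fzd5, Fzd6, Ror1, Wnt5a, Wnt7a, Dkk3, Notum, Rspo2, Ryk and Wnt7b, and the part of this in their levels was not tested.

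A gene was called higher or lower in the knockout library when log2 of its normalized reads plus 1 differed by at least 1 and its mean over both libraries was at least 20. Of the 47 members, 21 had such a mean. Among these, 9 were higher, against 11.2% of all 10879 genes with that mean, and 1 was lower, against 3.58%. The 9 were the ligands Wnt4, Wnt10a, Wnt9a and Wnt3, the receptors Fzd3, Fzd9 and Ror2, and the antagonists Notum and Sfrp1. The lower one was Sfrp5. Wnt10a, Wnt9a, Fzd3, Notum and Sfrp1 reached the mean of 20 through their knockout value alone, so their call was tied to the filter. Of the 16 members with a wild-type value of at least 20, 4 were higher (Wnt4, Wnt3, Fzd9 and Ror2), against 6.28% of all genes so filtered, and 1 was lower, against 4.38%. The median log2 ratio of the 21 was 0.57 and that of all 10879 genes was -0.11. Scaling to the sum of reads, the median gene or the upper quartile in place of the authors' size factors raised log2 ratios by 0.16 to 0.20.

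**Figure D1:**
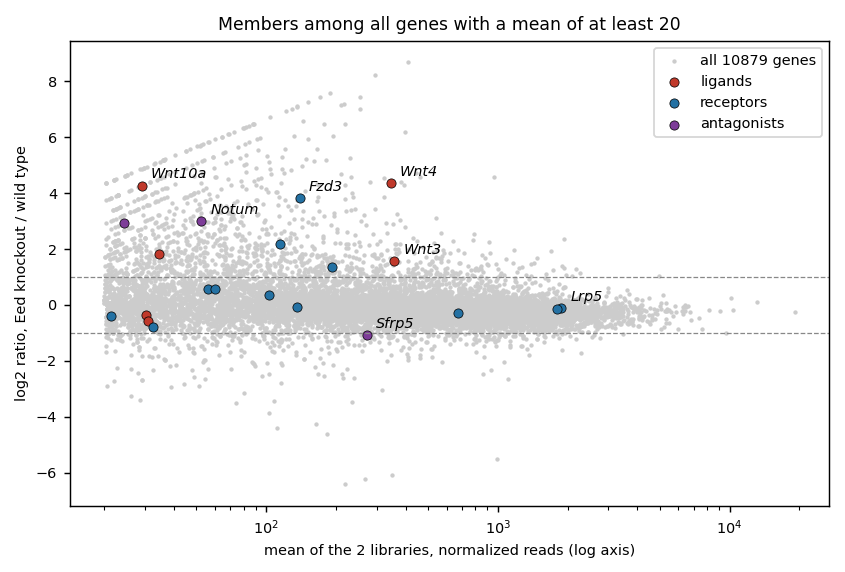
Log2 ratio of knockout over wild type (y axis) against the mean normalized reads of the 2 libraries (log x axis) for all 10879 genes with a mean of at least 20 (grey) and the 21 members among them (colours by class); dashed lines mark 2-fold. Wnt4 lies at 4.35 and Fzd3 at 3.82, while Lrp5 lies near 0 and Sfrp5 just under -1.

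Wnt ligand reads were higher in sum in the knockout library, mostly through the 4 ligands called higher. The 17 ligands together had 314 wild-type and 1374 knockout reads, a ratio of 4.56 (4.03 to 5.17). Wnt4 and Wnt3 supplied most of this: without Wnt4 the sums were 283 and 730 (ratio 2.69, 2.34 to 3.09), and without Wnt4 and Wnt3 they were 100 and 208 (ratio 2.17, 1.70 to 2.78). Wnt10a (1 and 54 reads) and Wnt9a (14 and 52) supplied most of the remaining excess. Wnt6 (37 and 23) and Wnt2b (34 and 25) had ratios below 1. Of the 17 ligand intervals, 6 lie above 1 and 11 span 1. The share of all genes with such an interval is not given here, so these counts describe the ligands only.

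Wnt4, a ligand known for its roles in kidney tubule and female reproductive tract development, had 31 wild-type and 644 knockout reads. The knockout was thus 21.7-fold higher (15.1 to 32.1), and in the authors' deposited table the adjusted p was 2.93e-06. Wnt10a, which acts in tooth, hair and sweat gland development, had 1 and 54 reads, a ratio of 56.3 (9.68 to 2264). With a single wild-type read, the size of that ratio is poorly fixed. Wnt3, the ligand that Paneth cells supply to neighbouring stem cells, had 183 and 522 reads, 2.97-fold higher (2.51 to 3.54). Wnt9a, known from joint formation, had 14 and 52 reads, 3.87-fold higher (2.11 to 7.56).

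The remaining ligands of moderate abundance did not follow. Wnt6, a ligand of crypt epithelium, had 37 and 23 reads, a ratio of 0.648 (0.368 to 1.12). Wnt2b, a ligand of the mesenchyme beneath the crypt, had 34 and 25 reads, a ratio of 0.766 (0.438 to 1.32). Wnt9b, known from kidney duct signalling, had 12 and 17 reads, a ratio of 1.48 (0.665 to 3.39). All 3 intervals span 1.

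Per transcript length, the makeup of the ligand pool differed between the libraries. In the wild type Wnt3 stood first at 8.53 RPKM (reads per kilobase of transcript, scaled to the total of the library), followed by Wnt6 at 2.56, Wnt2b at 1.47 and Wnt4 at 1.06. In the knockout Wnt3 was at 28.7 and Wnt4 at 25.9, followed by Wnt10a at 3.70 and Wnt9a at 2.65. Wnt4 made up 7.17% of the summed per-length level of the wild-type ligands and 38.6% of the knockout ligands, and Wnt3 made up 57.7% and 42.7%.

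**Figure D2:**
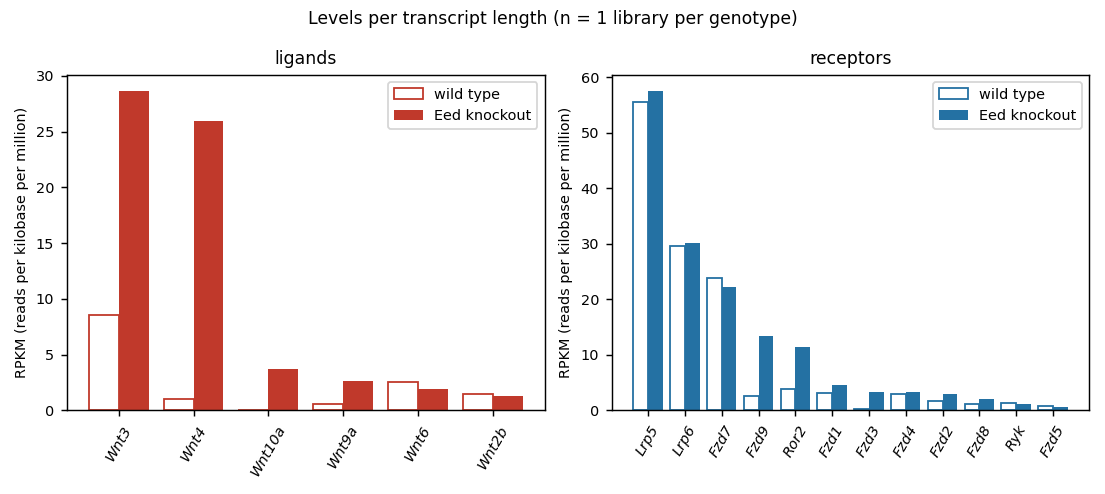
RPKM, reads per kilobase of transcript scaled to the library total (y axis), for ligands (left) and receptors (right) with at least 20 reads in either library; open bars are the wild type and filled bars the knockout, 1 library each. Wnt4 goes from 1.06 to 25.9 and comes close to Wnt3, while Lrp5, Lrp6 and Fzd7 stay the 3 highest receptors in both libraries.

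Promoter sequence was examined because CpG-rich promoters are the usual sites of PRC2. Its part in the calls was not tested. RefSeq windows of 300 bases (250 before to 50 after the start, build GRCm38.p6, which is not the authors' build) matched 31 of the 47 members. Shown are Wnt4, Wnt3 and Fzd9, called higher, Wnt6, which was not, and Sfrp5, the lower one, with CpG dinucleotides in capitals, 5′ to 3′ on the gene's strand. The windows are chr4:137277385-137277684 (+ strand) for Wnt4, chr11:103773925-103774224 (+ strand) for Wnt3, chr5:135250998-135251297 (- strand) for Fzd9, chr1:74771642-74771941 (+ strand) for Wnt6 and chr19:42202203-42202502 (- strand) for Sfrp5. The transcription start within the Wnt4, Wnt3 and Fzd9 windows lies 146, 25 and 183 bases from the start of the transcript matched to the deposited row.
Wnt4: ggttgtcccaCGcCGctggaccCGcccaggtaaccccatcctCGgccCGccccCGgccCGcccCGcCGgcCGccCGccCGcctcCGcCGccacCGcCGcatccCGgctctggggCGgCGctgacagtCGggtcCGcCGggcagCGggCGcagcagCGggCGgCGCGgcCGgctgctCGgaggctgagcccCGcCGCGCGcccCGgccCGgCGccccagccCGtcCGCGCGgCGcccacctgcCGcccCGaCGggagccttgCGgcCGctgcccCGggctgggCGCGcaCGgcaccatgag
Wnt3: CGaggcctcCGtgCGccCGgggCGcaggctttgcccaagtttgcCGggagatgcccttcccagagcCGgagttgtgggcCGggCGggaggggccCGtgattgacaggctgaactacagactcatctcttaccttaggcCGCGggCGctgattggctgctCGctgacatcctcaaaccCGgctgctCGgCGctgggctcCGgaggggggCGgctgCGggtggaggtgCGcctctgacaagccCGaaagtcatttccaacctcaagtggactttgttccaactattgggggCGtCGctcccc
Fzd9: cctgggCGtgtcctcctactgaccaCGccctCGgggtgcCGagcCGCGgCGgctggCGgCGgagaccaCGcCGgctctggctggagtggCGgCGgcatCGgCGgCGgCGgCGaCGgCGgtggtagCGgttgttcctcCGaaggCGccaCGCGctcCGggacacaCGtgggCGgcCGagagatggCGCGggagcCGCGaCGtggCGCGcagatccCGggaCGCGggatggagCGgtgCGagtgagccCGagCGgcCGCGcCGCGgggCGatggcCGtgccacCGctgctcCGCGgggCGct
Wnt6: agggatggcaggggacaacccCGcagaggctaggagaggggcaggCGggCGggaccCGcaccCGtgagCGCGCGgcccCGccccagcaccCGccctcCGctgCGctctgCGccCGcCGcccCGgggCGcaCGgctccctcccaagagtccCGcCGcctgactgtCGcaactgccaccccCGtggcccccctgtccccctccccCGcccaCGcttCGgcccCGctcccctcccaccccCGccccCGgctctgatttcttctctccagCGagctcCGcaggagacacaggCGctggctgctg
Sfrp5: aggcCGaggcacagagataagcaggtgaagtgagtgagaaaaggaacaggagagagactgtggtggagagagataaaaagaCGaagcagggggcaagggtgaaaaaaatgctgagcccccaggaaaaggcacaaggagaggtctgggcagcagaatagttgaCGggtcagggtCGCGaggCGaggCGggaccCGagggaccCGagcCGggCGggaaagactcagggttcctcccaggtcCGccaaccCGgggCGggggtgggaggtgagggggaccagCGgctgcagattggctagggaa

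The Wnt4 window held 51 CpG dinucleotides, that of Fzd9 53, that of Wnt6 31, that of Wnt3 24 and that of Sfrp5 15. The 31 member windows held a median of 27, against 7 over all 32851 windows of the reference, which are not limited to genes of the deposited table. The 5 called higher with a window (Wnt4, Wnt9a, Wnt3, Fzd9 and Ror2) held 24 to 58, and the 7 within 2-fold (Wnt2b, Wnt6, Fzd1, Fzd4, Fzd5, Fzd7 and Ryk) held 16 to 43, so the ranges overlap. Over genes of the deposited table with a window, the medians were 18 for genes called higher, 11 for genes called lower and 21 for genes within 2-fold. The Tcf-type motif CTTTGAT, searched on both strands, was in none of the 31 member windows and in 3.73% of all windows, which says only that these letters are not in these windows.

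The Wnt genes include neighbours on the chromosome, which gave pairs with a shared location. Wnt6 and Wnt10a lie next to each other on chromosome 1: Wnt10a was called higher and Wnt6 was not, and their intervals (9.68 to 2264 and 0.368 to 1.12) do not overlap. Wnt9b and Wnt3 are neighbours on chromosome 11, with intervals of 0.665 to 3.39 and 2.51 to 3.54, which overlap. Wnt3a and Wnt9a, also on chromosome 11, had 0 and 1 reads and 14 and 52 reads. Wnt10b and Wnt1, neighbours on chromosome 15, had 1 and 4 reads and 0 and 1 read, too few to place.

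The other ligands were near the detection limit. Wnt8b, a ligand of the embryonic forebrain, had 0 and 15 reads: its 95% counting interval starts at 3.74, and the ratio with the wild-type value set to a floor of 3 reads in that library was 5.21. Wnt16, known from bone, had 0 and 7 reads, with an interval that lies above 1 and a ratio of 2.43 against the floor. Wnt7b had 0 and 4 reads, and its interval, which starts at 0.688, spans 1. Wnt1, Wnt2, Wnt3a, Wnt5a, Wnt7a and Wnt8a had at most 3 reads in both libraries and gave no ratio. Setting genes at 0 to that floor and dropping the filter on the mean, 7 of the 11 ligands with over 3 reads in a library were at least 2-fold higher, against 17.5% of 14540 genes, and none was lower, against 5.69%. The 7 include Wnt10b, with 1 and 4 reads, whose interval spans 1. Wnt10a, Wnt10b, Wnt16 and Wnt8b had over 3 reads in the knockout library only, so their place in this count was tied to that rule.

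**Figure D3:**
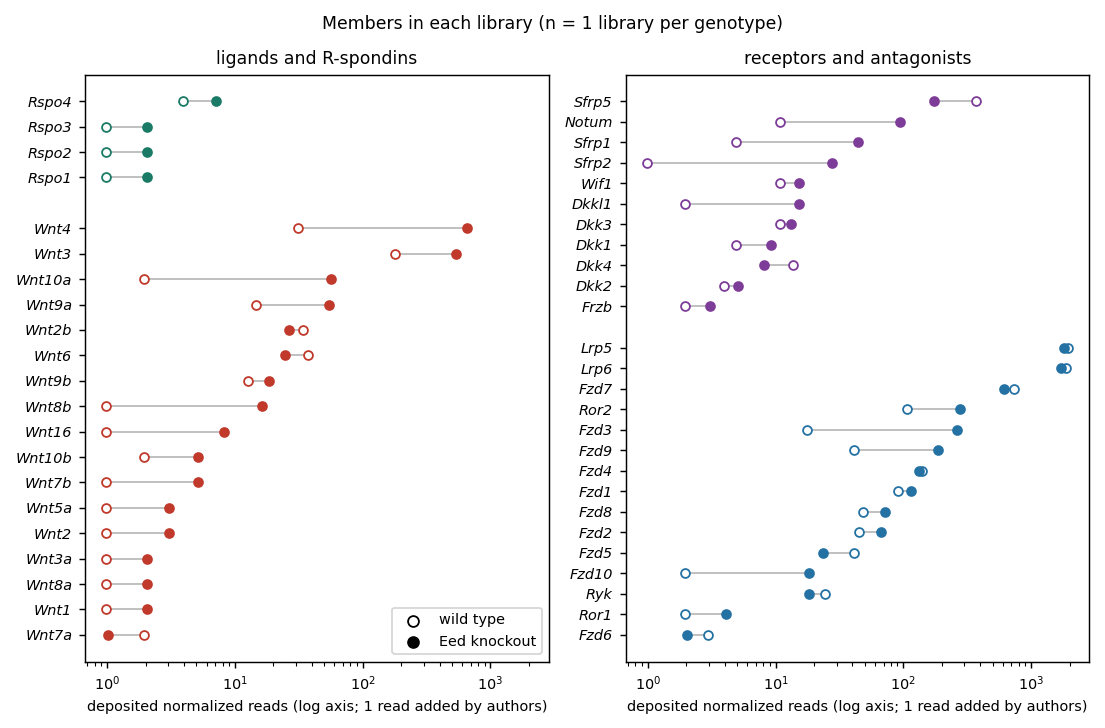
Deposited normalized reads (log x axis, 1 read added by the authors) of all 47 members; open circles are the wild type and filled circles the knockout, joined by a grey line. Wnt10a, Sfrp2, Wnt4, Wnt8b and Fzd3 show the widest gaps, while Lrp5 and Lrp6, the only members above 1000, lie almost together.

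The abundant receptors were close to level and a set of less abundant ones was higher in the knockout. The 15 receptors summed to 5242 and 5178 reads (ratio 1.03, 0.991 to 1.07), of which the 10 Frizzled genes gave 1182 and 1451 (ratio 1.28, 1.18 to 1.38). The excess of the Frizzled sum came from Fzd3 (17 and 255 reads) and Fzd9 (41 and 183), not from the family at large. The co-receptor Lrp5 had 1997 and 1760 reads, a ratio of 0.919 (0.861 to 0.980). Lrp6, its partner in β-catenin signalling, had 1930 and 1676 reads, a ratio of 0.905 (0.847 to 0.967). These small deficits turned to small excesses, up to 0.08 on the log2 scale, under each of the 3 other scalings tried, so no direction is given for either. Fzd7, the Frizzled known for its role in intestinal stem cells, had 755 and 597 reads, a ratio of 0.824 (0.739 to 0.919), inside the 2-fold rule. Its log2 ratio of -0.28 came to -0.10, -0.11 and -0.08 under the 3 other scalings, outside its counting interval, so the size of this deficit depends on the scaling.

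Fzd3, a receptor of planar cell polarity and axon guidance, had 17 and 255 reads, 15.6-fold higher (9.57 to 27.3). In the authors' deposited table its adjusted p was 0.00468, and Wnt4 and Fzd3 were the 2 of 47 members under 0.05 there, both higher, against 0.89% of all rows higher and 0.0853% lower. Fzd9, known from bone and brain, had 41 and 183 reads, 4.65-fold higher (3.30 to 6.70). Ror2, a tyrosine kinase receptor for Wnt5a, had 108 and 271 reads, 2.62-fold higher (2.08 to 3.30). Its ligand Wnt5a was at 0 and 2 reads. Fzd10 had 1 and 17 reads, a ratio of 17.7 (2.78 to 740), but stayed under the mean of 20. The exact binomial test on reads, which compares these libraries only, called 10 members higher and 4 lower, against 22.9% and 37.3% of all genes.

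Further receptors fell inside 2-fold. Fzd2 (45 and 65 reads) and Fzd8 (48 and 70 reads) had ratios of 1.51 (1.01 to 2.25) and 1.52 (1.04 to 2.24), whose intervals lie just above 1. Fzd1 had 91 and 112 reads and Fzd4, the Norrin receptor of retinal vessels, 141 and 129, and both intervals span 1. Fzd5, a receptor needed for Paneth cell maturation, had 41 and 22 reads, a ratio of 0.559 (0.317 to 0.961). Of the Fzd5 transcript's 6915 bases, 1233 overlap exons of Gm38058 on the other strand, and whether the counting used strand was not given in the sources used here. Ryk, a receptor with an inactive kinase domain, had 24 and 17 reads, and Fzd6 (2 and 1) and Ror1 (1 and 3) were at most 3 in both. With no filter on the mean and reads of 0 at the floor, 4 of the 13 receptors with over 3 reads in a library were at least 2-fold higher (Fzd3, Fzd9, Fzd10 and Ror2) and none was lower, beside 17.5% and 5.69% of the 14540 genes with that many reads. Of these 4, Fzd10 had over 3 reads in the knockout library only.

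**Figure D4:**
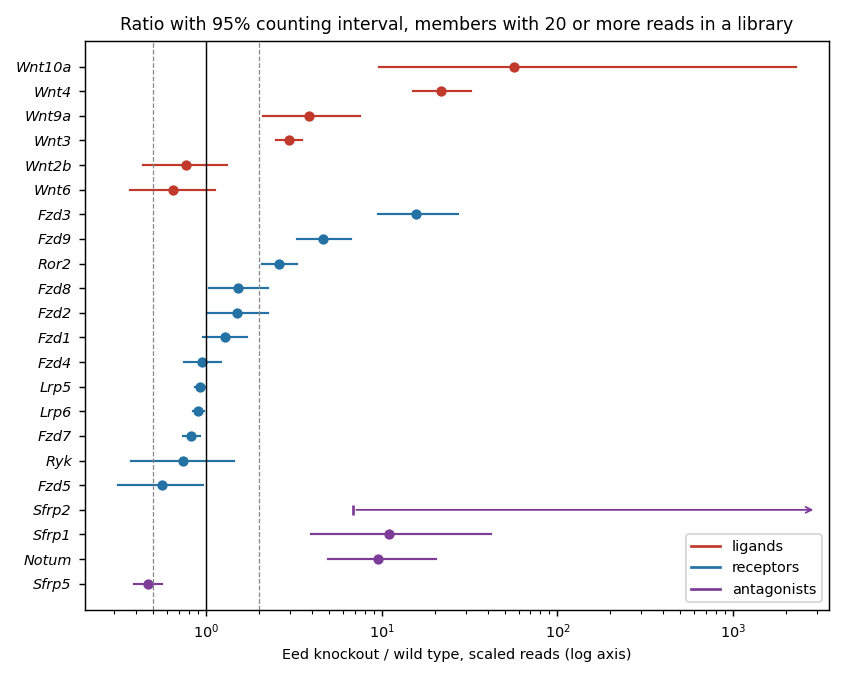
Ratio of knockout to wild-type reads after size factors (log x axis) with 95% counting intervals for the 22 members with at least 20 reads in either library; dashed lines mark 2-fold, and the arrow for Sfrp2, which had 0 wild-type reads, starts at the lower end of its interval, 6.84. The intervals of Wnt4, Wnt10a, Wnt3, Wnt9a, Fzd3, Fzd9, Ror2, Sfrp1, Sfrp2 and Notum lie wholly above 2, while the interval of Sfrp5 spans 0.5.

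The secreted antagonists were near level in sum and differed in makeup. The 11 antagonists had 433 and 390 reads together (ratio 0.939, 0.817 to 1.08), but without Sfrp5 the sums were 56 and 220 (ratio 4.09, 3.04 to 5.59). Notum (10 and 91 reads), Sfrp1 (4 and 42) and Sfrp2 (0 and 26) supplied most of that excess. Of the 11 intervals, 4 lie above 1, 1 lies below 1 and 6 span 1, again without a share of all genes to set them against. Sfrp5, a secreted Frizzled-related protein that binds Wnts, had 377 and 170 reads, 2.13-fold lower (1.77 to 2.57). It was the closest to the threshold among the called members, and under each of the 3 other scalings it was no longer 2-fold lower. It made up 88.1% of the summed per-length level of the wild-type antagonists and 47.2% of the knockout antagonists, among which Notum followed with 23.9%.

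Notum, the Wnt-inactivating enzyme that is itself a target of the pathway, had 10 and 91 reads, 9.48-fold higher (4.93 to 20.4). Its transcript of 2012 bases shares 412 exon bases with Notumos and 210 with Myadml2os on the opposite strand. Sfrp1 had 4 and 42 reads, 10.9-fold higher (3.97 to 42.0). Sfrp2, under the mean of 20, had 0 and 26 reads: its interval starts at 6.84, and its ratio against the floor of 3 reads was 9.03. Of its transcript's 2003 bases, 347 overlap Gm26771 on the opposite strand. Thus 3 of the antagonists with few or no wild-type reads and the abundant Sfrp5 lay on opposite sides of 1.

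Dickkopf genes, which act on Lrp5 and Lrp6, were scarce in both libraries. Dkk1 had 4 and 8 reads, Dkk2 had 3 and 4, Dkk3 had 10 and 12, and Dkk4 had 13 and 7, and each interval spans 1. Dkkl1, a relative known from the testis, had 1 and 14 reads, a ratio of 14.6 (2.22 to 617). Wif1, a binder of Wnt proteins, had 10 and 14 reads, and Frzb, another Frizzled-related protein, had 1 and 2. The R-spondins were close to absent at this depth: Rspo1, Rspo2 and Rspo3 had 0 and 1 read each, and Rspo4 had 3 and 6, a ratio of 2.08 (0.445 to 12.9). Counted without the filter, 5 of the 10 antagonists with over 3 reads in a library were at least 2-fold higher (Notum, Sfrp1, Sfrp2, Dkkl1 and Dkk1), against 17.5% of 14540 genes, and 1 was lower, against 5.69%. The interval of Dkk1 spans 1, and Sfrp2 and Dkkl1 had over 3 reads in the knockout library only.

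Exocrine pancreas markers and 3 collagens were higher in the same library, while the other marker lists held at most 1 called gene each. The filter on the mean left only 3 immune, 2 glial and neuronal and 1 endothelial gene. These are too few to show those lists level, or to set beside the 11.2% of all genes called higher. Of 13 fibroblast and smooth muscle markers with a row, 5 had a mean of at least 20 and 3 of these were higher, Col1a1 (1 and 155 reads), Col1a2 (0 and 124) and Col3a1 (6 and 198), all through their knockout value alone. The list summed to 403 and 867 normalized reads, with Col1a2, Dcn and Lum at 0 in the wild type, Pdgfra at 0 in the knockout, and Vim (265 and 210) and Tagln (113 and 100) within 2-fold. All 8 exocrine pancreas markers with a row were higher, 158 and 1815 normalized reads in sum, none at 0, and 7 of them reached the mean of 20 through their knockout value alone. The 6 Paneth cell markers summed to 5677 and 6264, with Pla2g2a higher and Lyz1 at 1930 and 1910 reads. The 4 endothelial markers with a row summed to 68.6 and 114, with none called and 3 above their wild-type value. Kdr, which the filter left out, had 2 and 21 reads (interval 2.67 to 96.3), and Tek had 12 and 10. The 7 immune markers summed to 161 and 239, with Csf1r higher and Itgam at 0 in the wild type. The 4 glial and neuronal markers summed to 41.1 and 100.05, with Ret higher and Sox10 at 0 in the wild type. The part of these in the values of Wnt3, Sfrp1, Sfrp2 and the other members was not tested, and in bulk tissue fewer cells of a type and less RNA per cell cannot be told apart.

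Downstream of the receptors most genes were within 2-fold, as were most genes of the whole table. Of 17 cytoplasmic and nuclear pathway genes with a mean of at least 20, none was higher, against 11.2% of all genes, and 1 was lower, against 3.58%. At those shares 17 genes are too few to set this list apart. Their median log2 ratio was 0.01. The lower one was Tle4, a Groucho-type co-repressor, with 1152 and 545 reads, 2.03-fold lower (1.83 to 2.25), a call that ends when the log2 ratio of -1.02 is shifted by any of the other scalings. The most abundant others, Apc and Gsk3b of the β-catenin destruction complex, Csnk1a1, its kinase partner, and Dvl1, the adaptor of Frizzled, had log2 ratios of -0.32, -0.39, -0.14 and -0.47. Of the 4 R-spondin receptors and Frizzled-removing ligases with that mean, too few to set beside those shares, none was called. The log2 ratio was -0.31 for Lgr4, 0.44 for Lgr5, 0.37 for Rnf43 and 0.37 for Znrf3.

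Modulators at the cell surface and planar cell polarity genes held several members called higher. Of 9 other surface and extracellular modulators with a mean of at least 20, 5 were called higher, against 11.2% of all genes, and none lower, against 3.58%. Their median log2 ratio was 1.19. Gpc3 and Gpr124 reached that mean through their knockout value alone, and of the 7 with a wild-type value of at least 20, 3 were higher, against 6.28% of all genes so filtered. Gpc3, a glypican that binds Wnt and Hedgehog proteins, had 5 and 318 reads, a ratio of 66.3 (28.1 to 206). Apcdd1, a membrane inhibitor of Wnt, had 22 and 101 reads, 4.78-fold higher (2.99 to 7.97), and Ptk7, a polarity co-receptor, was 2.50-fold higher (2.10 to 2.98). Tspan12, a Norrin co-receptor, was 2.29-fold higher (1.97 to 2.66), and Gpr124, which acts in Wnt7 signalling in brain vessels, had 11 and 29 reads. Igfbp4, Gpc4, Kremen1 and Kremen2 were within 2-fold. Of the planar cell polarity genes 9 had such a mean. Of them 3 were higher, against 11.2% of all genes, and none lower, against 3.58%. Celsr1, an atypical cadherin, with 235 and 1314 reads, was higher by 5.83-fold (5.07 to 6.72), Vangl2 by 3.01-fold (1.92 to 4.85), and Prickle1 by 9.38-fold (3.74 to 30.3). Prickle1 reached the mean of 20 through its knockout value alone, and of the 8 with a wild-type value of at least 20, 2 were higher, against 6.28% of all genes so filtered. Scrib, Celsr3, Intu and Prickle3 were within 2-fold.

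Targets of the pathway included 4 of 13 called higher, against 11.2% of all genes, and none lower, against 3.58%, with a median of 0.44. The list shares Notum, Dkk1 and Wif1 with the members. It shares Lgr5, whose value is the median, Rnf43, Znrf3, Tcf7 and Lef1 with the lists above. The 4 were Notum, Ccnd1, a G1 cyclin, at 2.19-fold (2.06 to 2.33), Sox9, a transcription factor of Paneth and stem cells, at 2.12-fold (1.93 to 2.32), and Ephb3, a receptor that positions crypt cells, at 2.08-fold (1.88 to 2.30). With a wild-type value of at least 20 they were 3 of 12, without Notum, against 6.28% of all genes so filtered. The feedback inhibitor Axin2, often used as a readout of β-catenin signalling, had a ratio of 0.985 (0.920 to 1.05), and Ephb2, the partner of Ephb3 in crypt positioning, 1.19 (1.10 to 1.29). Of the 19 targets with a row, 15 were above their wild-type value. Ascl2 was among those below, with 200 and 129 reads, a ratio of 0.672 (0.535 to 0.843). Read against the 11.2% of all genes called higher, these lists are small, and none was tested for genotype.

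**Figure D5:**
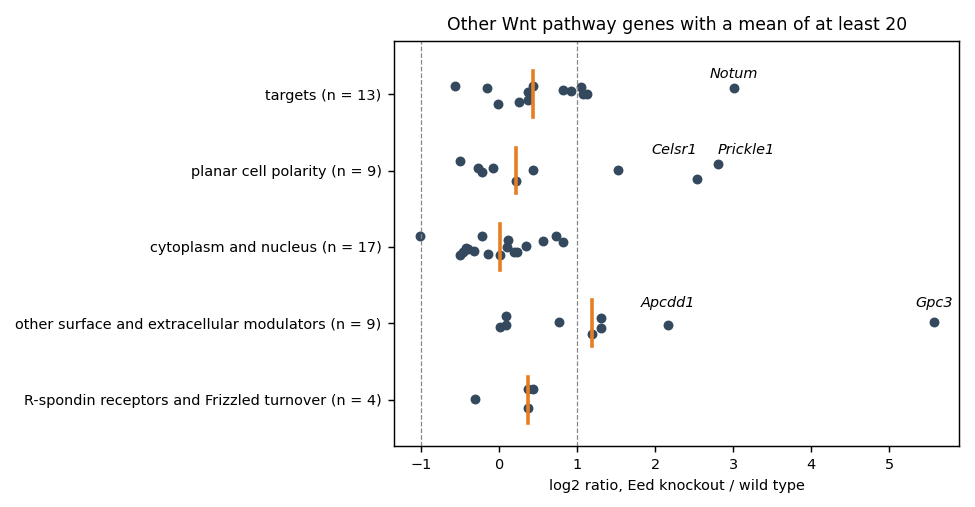
Log2 ratio of knockout over wild type (x axis) for Wnt pathway genes outside or overlapping the member list with a mean of at least 20, by list; points are genes, orange bars are medians and dashed lines mark 2-fold. Gpc3, Apcdd1, Celsr1, Prickle1 and Notum lie beyond 2, while no cytoplasmic or nuclear gene lies above 1.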

How the data were processed

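Total RNA of small intestine crypts was made into mRNA libraries with a TruSeq RNA kit (version 2), according to the labels' protocols. The submitters' processing notes name TopHat, DESeq and mm9. The read counter and its use of strand were not given in the sources used here. As deposited by the authors, the data are 1 table of 18766 RefSeq rows with 1 column of normalized signal per library, the ratio (fold change), its log2 and p-values, per the file headers.

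Within a tolerance of 1e-06, 100% of the values were whole multiples of the lowest value of their library, and since no row is at the lowest value in both, reads were taken as that multiple minus 1 read. No columns of other samples were present. A gene with several rows was represented by the row with the highest mean (17216 genes). Symbols that had become dates were restored through a RefSeq table (GRCm38.p6), which matched 98.6% of rows and served for names, neighbours and accession counts. Transcript lengths came from GENCODE vM21.

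Members and gene lists were chosen with earlier results of these data known. All members were accounted for, with values written out where a library had 20 or more reads. From other lists, called genes and up to 4 others with the highest means were named, and Ascl2 was added after its value was seen. Log2 ratios used a pseudocount of 1, which understates differences where reads are few. No test of genotype was possible, and intervals and floors (3 reads) cover counting error only, since reads that share a PCR origin were not told apart. The recovered reads were also put to an exact binomial test, a comparison of the libraries and not of the genotypes, which called 2486 genes higher and 4062 lower at a Benjamini-Hochberg adjusted 0.05. Alternatives were other pseudocounts, scalings, filters, folds and row choices. The calling rule and intervals were tested on simulated data. Software was SciPy 1.17.1, NumPy 2.4.6 and pandas 2.3.3 under Python 3.11.15, with plots from Matplotlib 3.10.9.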

Additional observations from a re-analysis of the deposited data

How the results depend on the processing

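The count of 9 members higher stayed at 6 to 11 under the other pseudocounts (0.5 and 10), scalings, mean filters (10 and 50), folds (1.5 and 3), summed rows and 1 read taken off every value. Summed rows could change no member value or count, since each member has 1 row. Under the settings that gave 6 to 11, 7.08% to 16.9% of all genes passing the filter were higher. With no filter the count was 18 of 47, against 16.4% of all 17216 genes. The 18 include Wnt2 and Wnt5a, at 0 and 2 reads each, which gave no ratio above. In alternatives chosen after seeing the data, the count was 17 with no filter on the mean and reads of 0 set to the floor, against 17.5% of genes with over 3 reads in a library. It was 4 of 16 with a filter on the wild-type value alone, against 6.28%, and 10 by the exact binomial test on reads, against 22.9%. The 1 member lower, Sfrp5, became 0 under each of the 3 other scalings and at a fold of 3. The count of lower members was 2 at a fold of 1.5, against 13.1% of all genes, and 4 by the exact binomial test, against 37.3%. Ligands higher went from 4 to 2 with a mean of at least 50 and to 10 with no filter, Wnt2 and Wnt5a among the 10. Antagonists and R-spondins higher went from 2 to 1 and to 4 under the same settings, where 8.37% and 16.4% of all genes were higher. Antagonists and R-spondins lower went from 1 to 0 under the 3 other scalings and at a fold of 3. Receptors lower went from 0 to 1 at a fold of 1.5. These filters admit fewer or more members by construction, and the other shifts follow from the thresholds. Sfrp5, at a log2 ratio of -1.08, came to -0.90, -0.92 and -0.88 under the 3 other scalings. Fzd5, at -0.78, passed only the fold of 1.5, and the binomial test sets no fold. The median log2 ratio of the members ranged from 0.49 to 0.77. Of 154 log2 ratios of 22 single members under 7 other settings, 142 stayed inside the member's counting interval, and no called member changed sign. The 142 include the values under summed rows, which were fixed in advance. No paired analysis was possible because each genotype has 1 library. Depth limits the 25 members with under 20 reads in both libraries.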

Other observations

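The reads of some central Wnt pathway genes are set beside their number of RefSeq accessions, for genes chosen after their values were seen. Ctnnb1, which encodes β-catenin and has 2 accessions, had 113 and 117 reads, above the medians of 47 and 57 of genes with that number. Tcf7l2, the main Tcf factor of the intestine, has 25 accessions and had 19 and 17 reads, and Lef1, with 7, had 0 and 1. Wls, the carrier that takes Wnt proteins to the cell surface, had 1 and 3 reads in a row with a non-coding accession. Several accessions did not always go with few reads: Apc, with 3, had 2814 and 2160, and Csnk1a1, with 4, had 1884 and 1642. Over all genes with a mean of at least 20 the median log2 ratio was -0.10 with 1 accession and -0.13 with 2 or with 3 or more.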
